A study of Mus musculus with 8 samples.

Results

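The genes described here encode the subunits of the proteasome and the factors that activate, inhibit or assemble it. They were chosen by symbol, as every row of the deposited table that starts with Psma, Psmb, Psmc, Psmd, Psme, Psmf or Psmg followed by a number, which gave 51 genes of 56576 in all. By role these were 14 subunits of the 20S core, 17 subunits of the 19S regulator, 3 inducible β subunits, 2 core subunits known from testis and thymus (Psma8 and Psmb11), 5 activators and inhibitors, 7 assembly chaperones and 3 entries that the symbol rule took in but that were kept apart from these roles: Psmc3ip, Psme3ip1, whose protein binds the activator Psme3, and the joint entry Psme2b // 9930111J21Rik1, named for a copy of Psme2. The study asked which ribosome-bound transcripts at cortical synapses differ when interneurons lack the receptor tyrosine kinase ErbB4. Synaptosomes, which are pinched-off synaptic endings, were prepared from the cortex at postnatal day 15, and tagged ribosomes were pulled down with their RNA. All mice carried Lhx6-Cre, which acts in cells of the medial ganglionic eminence and preoptic area and the interneurons they give rise to, and the Rpl22HA/HA allele, which tags ribosomes in the cells that express Cre. The 4 control libraries (replicates 1, 3, 4 and 5) came from Lhx6-Cre;ErbB4+/+;Rpl22HA/HA mice and the 4 mutant libraries (replicates 2, 3, 4 and 5) from Lhx6-Cre;ErbB4F/F;Rpl22HA/HA mice. Deletion is therefore limited to cells with a history of Lhx6 expression, and the pulldown enriches for their ribosomes without removing all other RNA.

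The proteasome is the large protease that degrades proteins tagged with ubiquitin. Its 20S core is a barrel of stacked rings, with the outer rings made of α subunits that gate the entrance and the inner rings made of β subunits, of which β1 (Psmb6), β2 (Psmb7) and β5 (Psmb5) cut peptide bonds. The 19S regulator caps the barrel, binds ubiquitin chains and removes them, and unfolds the substrate with a ring of ATPases. Under interferon the catalytic subunits are replaced by Psmb9, Psmb10 and Psmb8, which makes the immunoproteasome, and in neurons proteasomes act at synapses, where protein turnover accompanies plasticity.

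Promoter stretches are shown for 5 members because the results below turn on core subunits, regulator subunits and the inducible subunits: the catalytic Psmb5 and Psmb6, the regulator subunits Psmd4 and Psmd8, and Psmb9, which lies next to the peptide transporter gene Tap1. Each is the 250 bases before the annotated start, written 5′ to 3′ on the strand of the gene, from RefSeq (build GRCm38.p6). Capitals mark matches, on either strand, to 4 searched motifs: TGACNNNGC (the element read by Nrf1, the factor that drives proteasome genes), CGGAAG (the core bound by ETS factors), CCAAT (the box bound by NF-Y) and GAAANNGAA (most of the interferon response element). The motifs do not overlap one another in these stretches. Psmb5 is at chr14:54617996-54618245 on the minus strand, Psmb6 at chr11:70525107-70525356 on the plus strand, Psmd4 at chr3:95042615-95042864 on the minus strand, Psmd8 at chr7:29180674-29180923 on the minus strand and Psmb9 at chr17:34187331-34187580 on the minus strand.
Psmb5: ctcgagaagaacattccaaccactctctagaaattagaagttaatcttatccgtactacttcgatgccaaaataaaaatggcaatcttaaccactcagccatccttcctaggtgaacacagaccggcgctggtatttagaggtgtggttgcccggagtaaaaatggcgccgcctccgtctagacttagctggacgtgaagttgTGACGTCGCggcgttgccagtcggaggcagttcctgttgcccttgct
Psmb6: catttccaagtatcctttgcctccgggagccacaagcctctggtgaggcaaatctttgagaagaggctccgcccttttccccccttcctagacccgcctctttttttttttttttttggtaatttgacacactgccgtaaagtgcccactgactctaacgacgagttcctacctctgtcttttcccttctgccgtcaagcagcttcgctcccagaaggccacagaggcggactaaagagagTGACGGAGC
Psmd4: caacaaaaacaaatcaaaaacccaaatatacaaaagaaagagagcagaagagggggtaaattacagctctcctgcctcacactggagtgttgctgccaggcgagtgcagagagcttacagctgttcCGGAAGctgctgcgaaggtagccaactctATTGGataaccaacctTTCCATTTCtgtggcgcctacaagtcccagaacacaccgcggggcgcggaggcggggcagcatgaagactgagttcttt
Psmd8: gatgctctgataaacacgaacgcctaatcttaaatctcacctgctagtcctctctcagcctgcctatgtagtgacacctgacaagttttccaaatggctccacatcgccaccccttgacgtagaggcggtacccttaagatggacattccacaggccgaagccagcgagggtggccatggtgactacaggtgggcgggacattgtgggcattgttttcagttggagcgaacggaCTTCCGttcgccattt
Psmb9: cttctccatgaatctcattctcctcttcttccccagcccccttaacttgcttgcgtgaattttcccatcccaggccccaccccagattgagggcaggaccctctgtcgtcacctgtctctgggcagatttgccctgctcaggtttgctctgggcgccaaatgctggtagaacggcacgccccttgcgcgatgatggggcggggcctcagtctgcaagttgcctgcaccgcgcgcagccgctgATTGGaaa
The TGACNNNGC match began 47 bases before the start in Psmb5 and 9 bases before it in Psmb6. In Psmd4 the match to CGGAAG began 124 bases before the start, that to CCAAT 95 bases and that to GAAANNGAA 79 bases before it, in Psmd8 the CGGAAG match began 16 bases before it, and in Psmb9 the CCAAT match began 8 bases before it. All 250 bases shown for Psmb9 also lie inside the promoter window of Tap1, which is read in the opposite direction.

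Over the whole set, 40 of the members had a promoter in the table, with 43 windows that run from 250 bases before to 50 bases after a start. The CGGAAG motif was present in 14 of the 15 windows of the 19S regulator (93.3%), in 4 of the 12 windows of the 20S core (33.3%) and in 16.9% of all 32851 windows. These windows covered 14 of the 17 regulator genes, and among those 14 Psmc5 was the gene without the motif. Over all members the motif was in 23 of the 43 windows (53.5%). The TGACNNNGC motif was in 14.0% of the member windows and 12.4% of all windows, CCAAT in 32.6% and 37.4%, and GAAANNGAA in 16.3% and 8.56%. Of the 12 core windows, 2 held TGACNNNGC (16.7%), those of Psmb5 and Psmb6 shown above. The motifs were chosen after these windows had been looked at, so the shares describe the windows and test nothing. A match describes letters in a window and no binding was measured.

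The libraries held between 51010687 and 80226984 reads on genes, so counting error was small for all but the rarest members. Genes above 0 were fewest in control 1 (28247) and control 3 (31141), and numbered 31510 to 34364 in the other libraries. The deposited values are normalized read counts. Erbb4, the targeted gene, is a check of the labels. Its normalized counts were 1640, 5377, 4306 and 3034 in controls 1, 3, 4 and 5 and 1711, 1648, 1233 and 1048 in mutants 2, 3, 4 and 5. Control 1 lay below mutants 2 and 3, and the other controls lay above every mutant (log2 fold change −1.25, SE 0.34, limma p = 0.00412, exact permutation p = 0.0857, adjusted p = 0.58). Control libraries 1 and 3 stood apart for many of the genes described here, so the calls and the medians of each role are also given without them. Those values set only controls 4 and 5 against mutants 2, 3, 4 and 5.

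The 20S core genes were lower on average in mutants, and 2 control libraries held the highest values. The summed normalized counts of the 14 core genes were 68800, 71390, 33520 and 32510 in controls 1, 3, 4 and 5 and 37950, 36760, 26300 and 23750 in mutants 2, 3, 4 and 5. Controls 1 and 3 were far above all other libraries, and controls 4 and 5 lay between the mutants. All 14 core genes had a log2 fold change below 0, with a median of −0.67, against a median of 0.055 over the 31171 genes tested, of which 46.6% were below 0. Controls 1 and 3 were the highest pair of the 8 libraries for 14 of 14 core genes, against 14.0% of all genes tested. Without these 2 libraries, a choice made after seeing the data, the core median was −0.12, with 10 of 14 genes below 0. Between libraries of the same number the control was above the mutant for 14 of 14 core genes (number 3), 13 of 14 (number 4) and 13 of 14 (number 5), although the labels do not say that a number pairs libraries. Leaving out controls 1 and 3 sets controls 4 and 5 against all mutants. Mutants 2 and 3 deviated weakly with controls 1 and 3 (correlations 0.02 to 0.10 over all genes tested). Controls 1 and 3 had higher core sums than mutants 2 and 3, and controls 4 and 5 had higher core sums than mutants 4 and 5. As no label gives the sequencing batch of a library, a batch cannot be told apart from these differences. Mutants 4 and 5 were the lowest pair for 10 of 14 core genes, against 9.47% of all genes tested. As these are bulk samples, fewer cells of a type and less RNA per cell cannot be told apart.

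**Figure D1:**
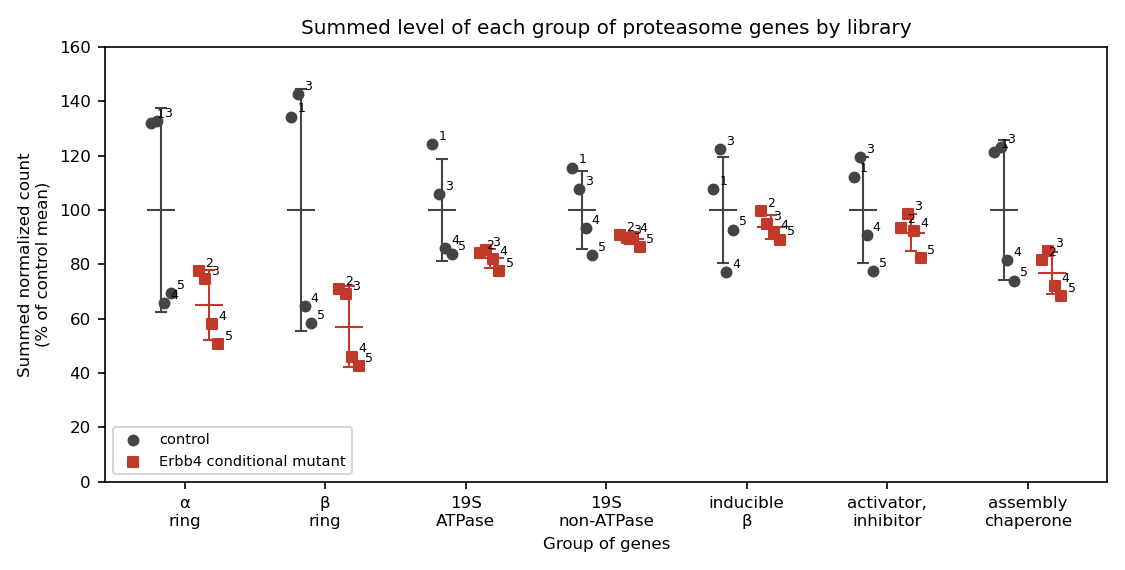
Summed normalized count of each group of genes in every library, as percent of the control mean (vertical axis), for 7 groups by role (horizontal axis). Grey circles are controls, red squares mutants, numbers are replicates, and bars give the mean ± SD (n = 4). In the α and β rings controls 1 and 3 stand above all other libraries, while controls 4 and 5 lie within the range of the mutants.

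Of the 50 members that passed the filter of a mean of 10 normalized counts in at least 1 genotype, 8 were called lower in mutants (a change of 1.5-fold or more with p no higher than 0.05 before adjustment). The calls were Psma1, Psma2, Psmb1, Psmb2, Psmb4, Psmb6, Psmd4 and Psmd8. The deposited mm10 coordinates place Psma1 at chr7:114264550-114276116, Psma2 at chr13:14613240-14674238, Psmb1 at chr17:15475666-15498298, Psmb2 at chr4:126677643-126709715, Psmb4 at chr3:94884093-94886958, Psmb6 at chr11:70525357-70527858, Psmd4 at chr3:95032691-95042614 and Psmd8 at chr7:29174188-29180673, so the calls were spread over 6 chromosomes. No member was called higher. Over all genes tested, 3.17% were called lower and 3.98% higher. At an unadjusted p alone 13 members were lower, against 3.77% of all genes. No member passed an adjusted p of 0.05 by limma (smallest 0.58), edgeR (smallest 0.572) or DESeq2 (smallest 0.326), with 13, 13 and 17 members at an unadjusted p of 0.05 or less. Over all genes, 0.0449% were lower at that adjusted p by limma. The calls rested on single libraries. The count called lower was 0 without control 1, 0 without control 3, 0 without mutant 4, 0 without mutant 5, 13 without control 4 and 17 without control 5. Of all genes tested, 643, 551, 575, 515, 1537 and 1977 were called lower in these fits, in that order, against 988 with all libraries. Without both controls 1 and 3, 0 members and 472 of all genes were called lower. The log2 fold changes of the 8 genes were then −0.20 (Psma1), −0.09 (Psma2), −0.25 (Psmb1), −0.23 (Psmb2), −0.14 (Psmb4), −0.22 (Psmb6), −0.22 (Psmd4) and −0.16 (Psmd8). All 4 mutants lay below all 4 controls for 3 members, the ATPases Psmc2 and Psmc5 and the chaperone Psmg1, against 2.17% of all genes tested, and none of these 3 was among the 8 calls. No member had all mutants above all controls, against 2.76% of all genes.

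**Figure D2:**
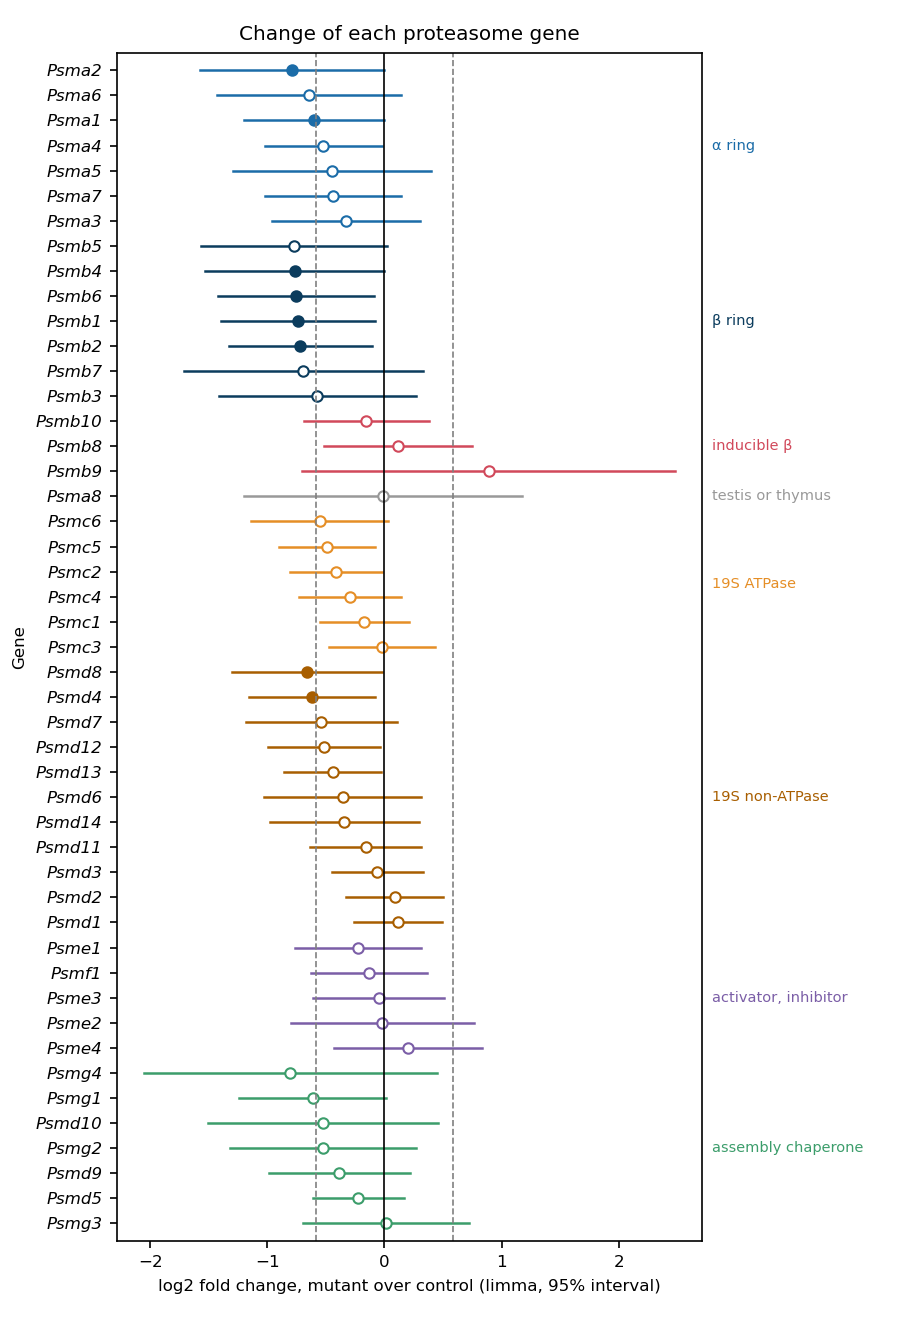
log2 fold change of mutant over control for 47 members (limma estimate and 95% interval, horizontal axis), grouped by role. Filled points passed the thresholds, open points did not, and dashed lines mark a 1.5-fold change. The 6 called core genes and the 2 called regulator subunits have intervals that end close to 0.

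Transcript length moved with these changes. The principal transcript of the core genes in GENCODE M21 had a median length of 1.16 kb, against 1.64 kb for the regulator subunits. Among all genes tested with a mean of at least 1000 normalized counts, those with transcripts under 1.5 kb (n = 701) had a median log2 fold change of −0.57, and 17.1% of them were called lower. The 17 members at that level and length had a median of −0.57, and 5 were called. For genes of 1.5 to 2.5 kb the median was −0.30 over all 1572 genes, with 12.2% called, and −0.44 over 11 members, with 2 called. For 2.5 to 4 kb it was −0.04 over 2339 genes, with 4.62% called, and −0.13 over 7 members, with 1 called. The 1 member of 4 to 6 kb, Psmd5, was at −0.22, against a median of 0.20 over 1799 genes. Under 4 kb the medians of members and of all abundant genes had the same sign, and for Psmd5 the sign was opposite.

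Controls 1 and 3 were also the highest pair for 84.9% of the 701 abundant genes with transcripts under 1.5 kb and for 5.44% of the 1213 genes of 6 kb or more. For the members under 1.5 kb, at any level, the number was 21 of 24. Without controls 1 and 3 the median of the 701 short genes was −0.04. Across genes, which are not independent replicates, Spearman's rho between length and log2 fold change was 0.47 over 47 members and 0.53 over 7624 abundant genes. The part of transcript length in the change of the core genes was not tested.

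**Figure D3:**
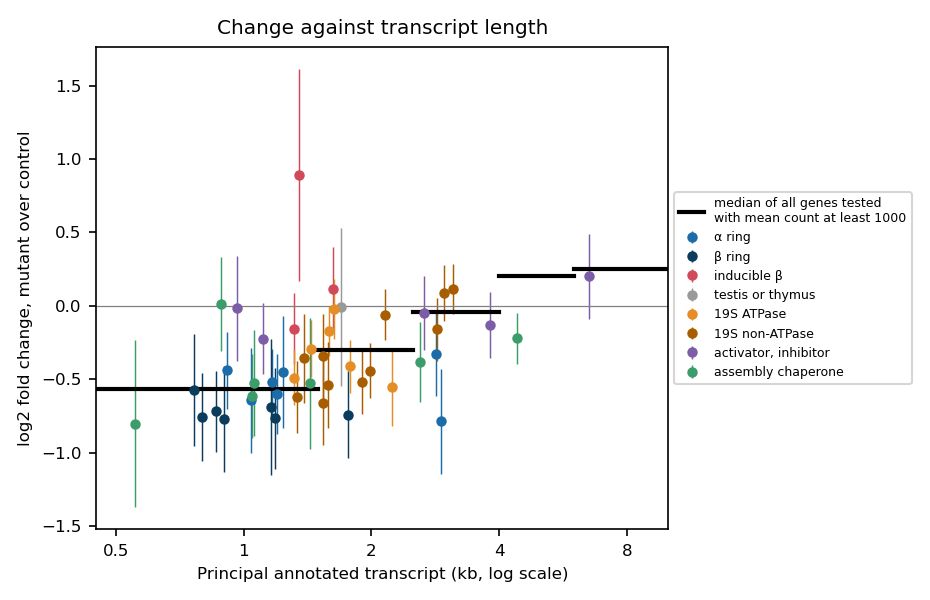
log2 fold change of mutant over control (vertical axis, bars are 1 SE) against the length of the principal annotated transcript (horizontal axis, log scale) for 47 members, coloured by role. Black lines give the median of all abundant genes in each length range, which runs from −0.57 under 1.5 kb to 0.25 at 6 kb and above, and the core genes under 1.5 kb lie around the first of them.

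The levels of cell type markers also differed between libraries. The summed counts of 10 markers of interneurons from the medial ganglionic eminence, the targeted cells, ranged from 64860 to 492100 in controls and from 23450 to 198100 in mutants, highest in control 3 and lowest in mutant 5. Sst alone made up 368000 of the sum in control 3 and 31270 of that in control 5. The 10 markers had a median log2 fold change of −0.98, and 3 of 10 were called lower. All 10 were below 0, from −2.08 (Pvalb) to −0.11 (Maf). The sums of 10 oligodendrocyte markers ranged from 230000 to 673800 in controls and from 202900 to 287300 in mutants, those of 10 astrocyte markers from 137400 to 242600 and from 144800 to 162000, and those of 10 microglial markers from 22940 to 43970 and from 25080 to 28660, each highest in control 1. Mbp alone made up 535500 of the oligodendrocyte sum in control 1. Of the oligodendrocyte markers 3 of 10 were called lower and all 10 were below 0, with a median of −0.62. No astrocyte or microglial marker was called (medians −0.11 and −0.38). Excitatory neuron markers summed to 125400 to 158400 in controls and 115000 to 141100 in mutants, with 1 of 10 called lower, 1 higher and a median of −0.28. Endothelial and mural markers summed to 194000 to 303100 in controls and 277600 to 300600 in mutants, with 4 of 10 called higher, none lower and a median of 0.53. Defining markers of every list were above 0 in at least 1 library. The part of these markers' cell types in the proteasome values was not tested.

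The α ring forms the gate of the core. Psma1 was at 3737, 4421, 2134 and 2507 normalized counts in controls 1, 3, 4 and 5 and at 2799, 1844, 2007 and 1604 in mutants 2, 3, 4 and 5. The groups overlapped, with mutant 2 above controls 4 and 5 (1.52-fold lower in mutants, log2 fold change −0.60, SE 0.27, limma p = 0.049, exact permutation p = 0.114). Psma2 was at 5276, 4811, 1867 and 1988 in controls and at 1972, 2342, 1578 and 1452 in mutants. It had the lowest log2 fold change of the ring, −0.79 (SE 0.36, limma p = 0.0498, exact permutation p = 0.143), and mutant 3 was above controls 4 and 5. Psma3 was nearest to 0 in the ring, at 1412, 1077, 686.6 and 639.4 in controls and 650.6, 629.6, 810 and 806.7 in mutants. Only controls 1 and 3 exceeded mutants 4 and 5, and the log2 fold change of −0.33 (SE 0.29) did not pass the test. In all, 2 of 7 α genes were called lower, and the median over the ring was −0.52, or −0.04 without controls 1 and 3.

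The β ring holds the active sites, and 4 of its 7 genes were called lower, with a median of −0.74, or −0.17 without controls 1 and 3. Psmb6, the caspase-like β1 subunit, was at 6630, 6994, 3442 and 3052 normalized counts in controls and at 3621, 3041, 2306 and 2354 in mutants. Mutant 2 exceeded controls 4 and 5, and the mean was 5030 ± 2070 in controls and 2830 ± 625 in mutants (SD, n = 4; log2 fold change −0.76, SE 0.30, limma p = 0.0291, exact permutation p = 0.114). Psmb7, the trypsin-like β2 subunit, was at 4997, 5687, 2252 and 1328 in controls and at 2420, 2902, 1620 and 1096 in mutants. Its spread was wide in both genotypes, and it was not called (log2 fold change −0.69, SE 0.46, limma p = 0.163, exact permutation p = 0.314). Psmb5, the chymotrypsin-like β5 subunit, was at 5261, 5708, 2609 and 2155 in controls and at 3203, 2524, 1626 and 1513 in mutants. Its log2 fold change was −0.77 (SE 0.36), the lowest of the ring and −0.17 without controls 1 and 3, with p just above the threshold (limma p = 0.0564, exact permutation p = 0.143).

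The other β subunits have structural roles. Psmb1 was at 8335, 8933, 4672 and 4114 normalized counts in controls and at 4530, 4722, 3095 and 2762 in mutants. Its log2 fold change was −0.74 (SE 0.30, limma p = 0.0305, exact permutation p = 0.143), and mutants 2 and 3 overlapped controls 4 and 5. Psmb2 was at 5785, 5419, 2751 and 2911 in controls and at 2895, 2652, 2202 and 2016 in mutants. Only mutant 2 entered the range of the controls (log2 fold change −0.72, SE 0.28, limma p = 0.0251, exact permutation p = 0.0571), the smallest p in the core. Psmb4 was at 4946, 5891, 2094 and 2451 in controls and at 2526, 2650, 1655 and 1608 in mutants. Mutants 2 and 3 lay above controls 4 and 5 (log2 fold change −0.77, SE 0.35, limma p = 0.0489, exact permutation p = 0.171). Psmb3 had the smallest difference of the ring, at 4176, 3968, 1461 and 1437 in controls and 1950, 2100, 1243 and 1398 in mutants (log2 fold change −0.57, SE 0.38), and was not called.

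**Figure D4:**
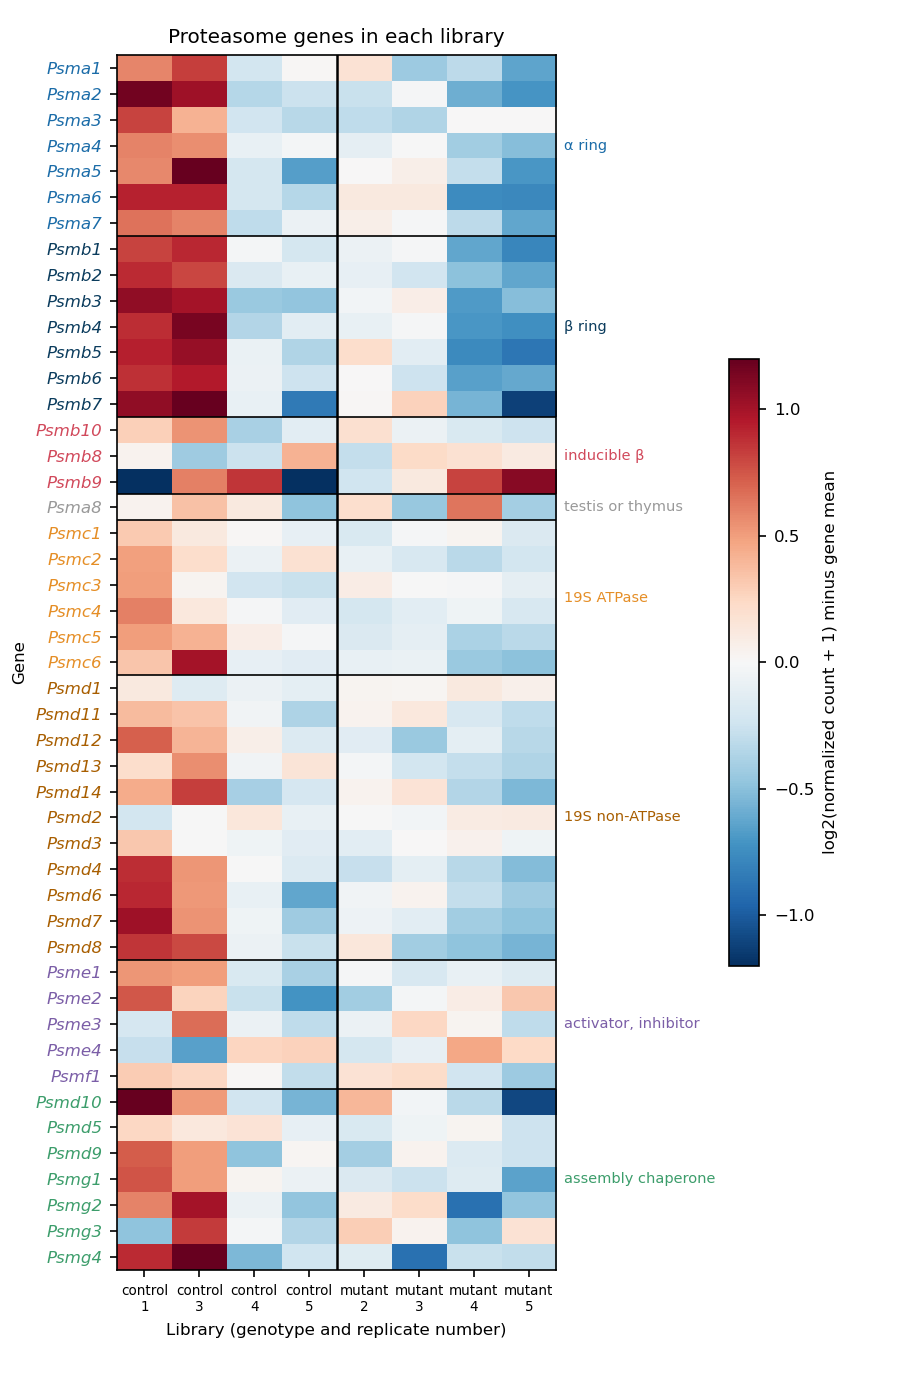
log2(normalized count + 1) of 47 members (rows, by role) in each of the 8 libraries (columns), as the difference from the mean of each gene over all libraries. Red is above and blue below the mean. The α and β rings are red in controls 1 and 3 and mostly blue in mutants 4 and 5.

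The 19S regulator had a summed level of 163300, 148200, 126100 and 115500 normalized counts in controls and of 123000, 122300, 121400 and 116000 in mutants. Control 1 was the highest, control 5 the lowest, and the mutants lay close together. Of its 17 genes 2 were called lower, none higher, and 15 had a log2 fold change below 0, with a median of −0.36. Controls 1 and 3 were the highest pair for 13 of the 17, and without them the median was −0.04.

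The ATPases unfold substrates, and none of the 6 was called. Psmc6 had the lowest log2 fold change among them (−0.55, SE 0.27, limma p = 0.0623, exact permutation p = 0.171), with 2829, 4476, 2094 and 2043 normalized counts in controls and 2104, 2126, 1649 and 1590 in mutants. Psmc3 was nearest to 0 (−0.02, 95% interval −0.48 to 0.43), with 13610, 9849, 8210 and 7966 in controls and 10190, 9568, 9486 and 8927 in mutants. Control 1 was high for Psmc3 and the mutants lay above controls 4 and 5. Psmc5, chosen for the text because its groups did not overlap, was at 8630, 8159, 6454 and 6033 in controls and at 5430, 5679, 4708 and 4871 in mutants. It was 1.40-fold lower in mutants (limma p = 0.0236, exact permutation p = 0.0286), below the fold threshold. Psmc2, chosen likewise, was at 6728, 5544, 4559 and 5443 in controls and at 4486, 4193, 3825 and 4108 in mutants, and was 1.33-fold lower (limma p = 0.042, exact permutation p = 0.0286). This permutation p is the smallest that 4 against 4 libraries can give. Groups that do not overlap always give it, so for genes chosen in this way it adds nothing to the choice.

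Among the 11 non-ATPase subunits, Psmd4, a ubiquitin receptor, was at 9932, 7768, 5343 and 4788 normalized counts in controls and at 4448, 4970, 4267 and 3744 in mutants. Mutant 3 lay above control 5 alone, and the log2 fold change was −0.62 (SE 0.25, limma p = 0.028, exact permutation p = 0.0571). Psmd8, a subunit of the lid, was at 5437, 5196, 2855 and 2493 in controls and at 3292, 2245, 2143 and 2033 in mutants. Mutant 2 lay above controls 4 and 5 (log2 fold change −0.66, SE 0.29, limma p = 0.0443, exact permutation p = 0.114), the lowest value of the group. Psmd1, a large scaffold of the base, had the highest, 0.11 (95% interval −0.26 to 0.49), with 18160, 15010, 15960 and 15460 in controls and 17120, 17010, 18140 and 17490 in mutants. Control 1 was as high as the highest mutant and the other 3 controls lay below every mutant. The scaffold Psmd2 was the only other regulator gene above 0, at 0.09 (SE 0.19), with 26180, 30420, 33590 and 28760 in controls and 30380, 29830, 32780 and 32930 in mutants.

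Levels can be set side by side only per length. Per kb of principal transcript, core genes ran in controls from 335 normalized counts (Psma3) to 6303 (Psmb6), with a median of 3428. Regulator genes ran from 1138 (Psmd11) to 10040 (Psmd2), with a median of 4390. The inducible subunits were at 1070 (Psmb10), 238 (Psmb8) and 50.0 (Psmb9) normalized counts per kb. Each was below its constitutive counterpart per kb, which were at 3074 (Psmb7), 4375 (Psmb5) and 6303 (Psmb6). The counting regions of the authors are not the whole transcript, so values per kb are approximate.

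**Figure D5:**
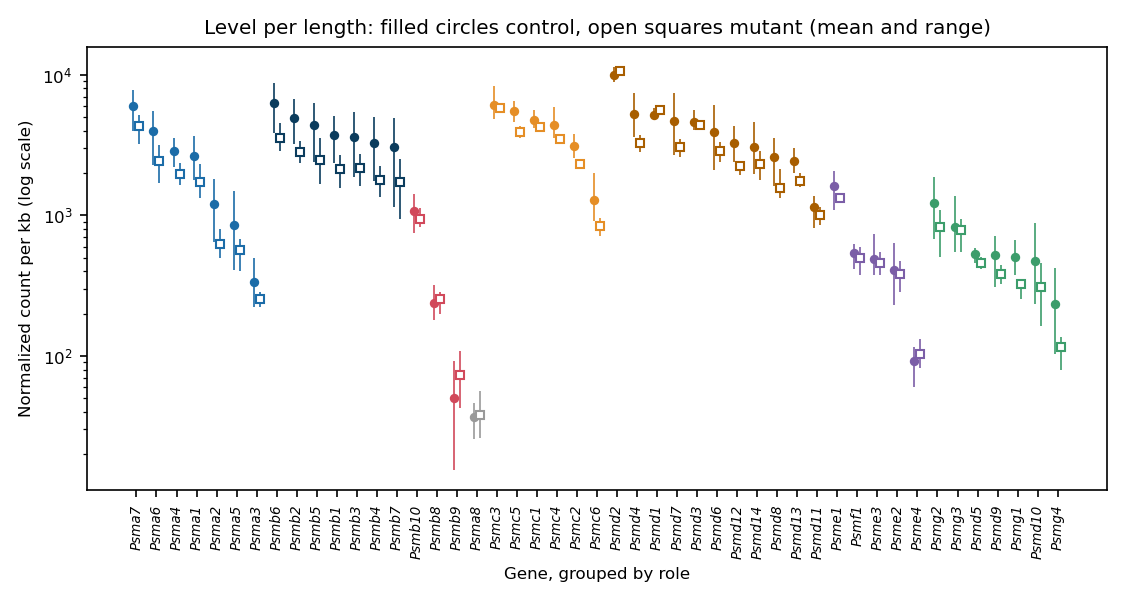
Normalized count per kb of principal transcript (vertical axis, log scale) for 47 members by role. Filled circles are the control mean and open squares the mutant mean, with bars from the lowest to the highest of 4 libraries. Psmd2 is highest, the inducible Psmb9 and testis-associated Psma8 are lowest.

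None of the 3 inducible subunits, which replace the catalytic ones in the immunoproteasome, was called. Psmb10 was at 1573, 1876, 983.9 and 1180 normalized counts in controls and at 1474, 1224, 1135 and 1086 in mutants. The mutants lay within the range of the controls (log2 fold change −0.16, 95% interval −0.69 to 0.38). Psmb8 was at 404.9, 292.5, 328.3 and 524.4 in controls and at 321.5, 461.6, 446 and 424.7 in mutants, also within the controls (0.12, 95% interval −0.51 to 0.74). Psmb9 was at 21.81, 103.7, 124.1 and 21.03 in controls and at 57.28, 73.85, 120 and 145.9 in mutants. Controls 1 and 5 were low and the log2 fold change of 0.89 had an interval from −0.71 to 2.48. Tap1 belongs to the transporter of peptides for antigen presentation and shares the Psmb9 promoter stretch shown above. It was at 462.2, 788.3, 610.5 and 817.5 in controls and at 1732, 1443, 920.7 and 1033 in mutants. All mutants lay above all controls (1.90-fold, limma p = 0.00716, exact permutation p = 0.0286, adjusted p = 0.58). The starts of both genes lie on opposite strands, 177 bases apart in the deposited coordinates and 226 bases apart in RefSeq. The stretch shown above ends at the RefSeq start of Psmb9. Its last bases, with the CCAAT match, therefore lie inside the deposited Psmb9 gene and its first bases inside the deposited Tap1 gene.

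The activators open the gate of the core in place of the 19S regulator, and Psmf1 is a known inhibitor. Their 5 genes had no call and a median of −0.05, or 0.16 without controls 1 and 3. Psme1, a subunit of the interferon-inducible activator, was at 2312, 2263, 1406 and 1219 normalized counts in controls and at 1589, 1399, 1507 and 1438 in mutants. It had the lowest log2 fold change of the group (−0.22, SE 0.24), and the mutants lay between the controls. Its partner Psme2 was at 614.9, 439.3, 304.3 and 221.4 in controls and at 273.6, 358.2, 387.6 and 457.5 in mutants (−0.02, SE 0.36). The nuclear activator Psme3 was at 1070, 1962, 1177 and 995.6 in controls and at 1171, 1462, 1261 and 999.2 in mutants (−0.05, SE 0.25). For both the groups overlapped throughout. Psme4, which encodes the large activator PA200, had the highest value (0.20, SE 0.29), with 508.5, 392.1, 736.7 and 748.3 in controls and 533.5, 577, 852 and 730.3 in mutants. Psmf1 was at 2398, 2299, 1950 and 1577 in controls and at 2186, 2262, 1657 and 1428 in mutants (−0.13, SE 0.22). Controls 1 and 3 were lowest for Psme4, whose transcript is the longest of the set at 6.49 kb.

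The 7 assembly chaperones, which help build the rings and the base, had no call and a median of −0.53, or 0.01 without controls 1 and 3. Psmg4 was lowest (−0.80, SE 0.57), at 155.4, 234, 57.05 and 70.5 normalized counts in controls and 75.24, 44.31, 68.7 and 67.48 in mutants. Controls 1 and 3 were high, the other 2 controls lay among the mutants, and without the former the value was −0.02. Psmg3 was nearest to 0 (0.01, SE 0.32), at 486.7, 1214, 668.6 and 533.1 in controls and 832.8, 700.7, 486 and 766.1 in mutants. Psmg1, named because its groups did not overlap, was at 702.1, 587.1, 425.4 and 394.5 in controls and at 368.5, 347.1, 371.2 and 264.9 in mutants. It was 1.53-fold lower (limma p = 0.0548), and the lack of overlap fixes its exact permutation p at 0.0286.

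The core subunits of testis and thymus were low or listed at 0. Psma8 had 43.29 to 78.01 normalized counts in controls and 44.31 to 95.35 in mutants (log2 fold change −0.01, SE 0.54). Psmb11 was 0 in 7 libraries and 6.946 in mutant 5, and was not tested. Of the 3 entries kept apart from these roles none was called, with log2 fold changes from −0.49 (Psmc3ip) to 0.45 (Psme2b // 9930111J21Rik1).

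Other genes of the pathway were taken from fixed lists. Of 11 further proteasome components and partners none was called, with a median of −0.36 and values from −0.86 for the deubiquitinase Uchl5 to 0.57 for the proteasome-bound ligase Ube3c. Ube3c was at 6489, 11860, 13890 and 11520 normalized counts in controls and at 14050, 15110, 17400 and 16290 in mutants, with all mutants above all controls and a change of 1.49-fold, just under the threshold (limma p = 0.0396, exact permutation p = 0.0286). The Nrf1 pathway restores proteasome genes when activity falls. Of 5 genes listed for it, which include Nfe2l2 for the related factor Nrf2, 1 was called lower, the ligase Syvn1 (log2 fold change −0.61, SE 0.26). The median of these genes was 0.13, and Nfe2l1, which encodes Nrf1, was at 0.18 (SE 0.25). Of 15 shuttle and ubiquitin genes none was called, with a median of −0.20 and values from −1.23 (Rps27a, a ubiquitin fusion gene) to 0.40 (the ubiquitin-activating enzyme Uba6). Rps27a was low, at 24.93 to 368.1 normalized counts over all libraries, and its value had an SE of 0.65. Of 19 antigen presentation and interferon genes 2 were called higher, Tap1 and Ifit1 (0.73, SE 0.30), none lower, and the median was 0.19. The 8 subunits of the CCT chaperonin, another ring complex, had no call, a median of −0.34 and all values below 0.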

How the data were processed

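Ribosome-associated RNA from cortical synaptosomes of 4 control and 4 mutant mice was sequenced. The deposited values are normalized counts, a signal in which the authors divided reads on constitutive gene regions by a size factor for each library, after alignment to mm10 with STAR 2.4.0 and normalization with DESeq2. Every value was a whole multiple of 1 read's worth within 0.01 reads, so reads were also recovered. Here log2(normalized count + 1) was compared between genotypes with limma 3.58.1 (R 4.3.3; trend, Benjamini-Hochberg adjustment over 31171 genes with a mean of at least 10 in 1 genotype), and fold changes are on that scale. edgeR 4.0.16 and DESeq2 1.42.0 on recovered reads, other scalings, filters and left-out libraries were alternatives. The exact two-sided permutation test took all 70 divisions of 8 libraries. The scripts were tested on simulated data. Same-numbered libraries of both genotypes had correlated deviations of 0.10, 0.10 and 0.08, so numbers were not taken as pairs. Controls 1 and 3 correlated with mutants 2 and 3 at 0.02 to 0.10 and with mutants 4 and 5 at −0.12 to −0.03. Controls 4 and 5 correlated with mutants 4 and 5 at 0.08 to 0.10 and with mutants 2 and 3 at −0.08 to −0.06. The study mentions sequencing batches, but no label ties a library to one, so batch and library cannot be told apart. Call thresholds follow the methods of the study. Genes named in the text were the called members, the catalytic and inducible subunits, the activators and inhibitor, and the extremes of change in each role and of level per kb. Members whose groups did not overlap were named as well. The motifs were chosen after the windows had been looked at, and the interferon motif was shortened from its fuller form afterwards, which raised its share in all windows. Lengths are of principal transcripts in GENCODE M21. The members and lists were chosen with earlier results of these data known. P-values set the difference between genotypes against the spread between these libraries.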

Additional observations from a re-analysis of the deposited data

Results flagged for a closer look

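Of 102 groups of 4 libraries examined, 1 held a library set far from the other 3, where chance alone gives about 5.1. In mutant 2 Psmd8 was at 3292 normalized counts, while the other mutants were at 2033 to 2245.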

How the results depend on the processing

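The number of members called lower, 8 in the main comparison, was 4 with quantile normalization, 5 with TMM factors on log2 CPM, 0 with limma without trend, 3 with library weights, 8 with edgeR and 12 with DESeq2. Of all genes tested, 988 were called lower in the main comparison and 1019, 900, 719, 1633, 1206 and 1573 in these alternatives, in that order. The number of members was 0 at an adjusted p of 0.05 and 13 with no fold change minimum, against 14 and 1175 of all genes. Leaving out single libraries gave 0 to 17 members (515 to 1977 of all genes). Leaving out controls 1 and 3, added after seeing the data, gave 0 members (472 of all genes). With the replicate number as a block (numbers 3, 4 and 5) 9 members were called lower and 1 higher, against 1795 and 1562 of all genes. The 1 higher was the joint entry Psme2b // 9930111J21Rik1 (log2 fold change 0.76), and the core median was −0.58. Same-numbered libraries deviated together only weakly, as given with the processing, and control 3 deviated against mutants 4 and 5 (correlations −0.12 and −0.11).

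Without controls 1 and 3 the median log2 fold change was −0.12 for the 20S core, −0.04 for the 19S regulator and 0.17 for inducible subunits, activators and inhibitor. The last median ranged from −0.19 to 0.04 without single libraries. Erbb4 stayed lower in every alternative, from −1.68 to −1.01.

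Some members changed sign. Without controls 1 and 3 the core genes Psmb7, Psmb3 and Psma3 went from −0.69, −0.57 and −0.33 to 0.12, 0.17 and 0.12 on the log2 scale. The log2 fold change was then 0.18 for Psmb10, −0.02 for Psmb8, 0.24 for Psmc3, 0.18 for Psme1, 0.48 for Psme2, 0.16 for Psme3, −0.17 for Psme4 and 0.08 for Psmf1. With library weights it was 0.02 for Psma3, 0.11 for Psmc3, 0.36 for Psme2 and −0.07 for Psmg3. With the replicate block it was 0.11 for Psmc3, 0.37 for Psme2 and −0.24 for Psmg3. Quantile normalization gave 0.05 for Psmc3 and 0.01 for Psme3, and TMM factors gave 0.00 for Psmc3 and 0.01 for Psme2. Psmg3 was at −0.03 with edgeR and −0.04 with DESeq2. Without single libraries the values ran from −0.01 to 0.27 for Psmb8, −0.12 to 0.14 for Psmc3, −0.26 to 0.23 for Psme2, −0.16 to 0.17 for Psme3 and −0.15 to 0.29 for Psmg3. Apart from the left-out libraries, whose own construction gives fewer samples, the cause was not tested.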
